A study of Zea mays with 4 samples.

Results

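Tightly clustered peaks are peaks of P1 chromatin immunoprecipitation sequencing (ChIP-seq) that lay close to another peak of the same duplicate. A peak on chromosomes 1 to 10 was counted as clustered when the midpoint of another peak of its own list lay within 2000 bp. In list 1, 1446 of 20424 deposited peaks were members, and in list 2, 809 of 14719. They formed 699 clusters in list 1 and 395 in list 2. The other 18927 and 13838 peaks of the chromosomes, which had no such neighbour, are called single peaks below. The members were chosen by position, so how many there are and how close they lie are descriptions, given without a test. The other duplicate took no part in the choice and is the readout. Counts of its peaks within 2000 bp still favour clusters in part, because a clustered peak has a second peak within reach by choice.

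The 4 libraries came from pericarp, the maternal outer layer of the maize kernel, peeled at 14 days after pollination without aleurone. P1-rr plants express P1 there, and P1-ww plants do not. The P1-rr line was made by crossing the stock 65-CFS-305, which carries P1-rr and P2, into the inbred A619 over 6 backcrosses and then selfing for 3 generations. A619, the P1-ww parent, has a P1 locus without function and no P2, so the lines also differ around P1 on chromosome 1 and in a piece of chromosome 6. All libraries were precipitated with the same polyclonal antibodies against P1. In list 1 the P1-rr library of replicate 1 is set against its P1-ww partner, and in list 2 the same is done for replicate 2, so each list is 1 sample of the comparison. The read depth behind a peak is unknown here, and intervals cover the counting of peaks only.

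P1 is an R2R3-MYB transcription factor that switches on flavonoid genes for the red phlobaphene pigments of the pericarp. Such factors bind short DNA motifs, and several bound sites can lie close together near a regulated gene. Most of the maize genome is made of transposable elements, which often lie nested in one another and occur in many similar copies. No source used here names the genome build of the lists, and therefore no sequence, gene or repeat is assigned to any cluster.

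Clusters were nearly always pairs. In list 1, 654 of the 699 clusters had 2 peaks, 43 had 3, 1 had 4 and 1 had 5. In list 2, 378 of the 395 had 2 peaks, 15 had 3 and 2 had 4. Pairs thus made up 93.6% of the clusters of list 1 and 95.7% of those of list 2. A cluster had a median span of 1296 bp in list 1 (interquartile range 900 to 1753) and 1436 bp in list 2 (1052 to 1934). The longest measured 4986 bp and 3933 bp. From one cluster to the next on a chromosome the median distance was 1817 kb in list 1 and 3506 kb in list 2, so the clusters were scattered rather than gathered in a few places. Of the 2063 windows of 1 Mb, 569 held a clustered peak of list 1 and 358 one of list 2.

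Clustered peaks were more common than even placement gives in both duplicates. They made up 7.10% of the chromosomal peaks of list 1 (95% Wilson interval 6.75 to 7.46) and 5.52% of list 2 (5.16 to 5.91). If the peaks of a list lay evenly and independently along each chromosome, a formula gives 793.1 and 412.6 clustered peaks. The observed numbers were 1.82 times (exact Poisson 95% interval 1.73 to 1.92) and 1.96 times (1.83 to 2.10) these. Peaks are not spread evenly at the scale of megabases, and with the density of each 1 Mb window the formula gives 868.7 and 453.0. The ratios were then 1.66 and 1.79. Most of the excess over even placement was therefore present at the density of the windows as well. Even placement puts peaks at every distance, whereas no midpoints of list 1 lay closer than 402 bp and none of list 2 closer than 338.5 bp. With those empty distances left out, the ratios were 2.27 and 2.35. Peaks were treated as independent, which members of one cluster are not, so the intervals are too narrow.

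Close pairs were most in excess between 400 and 750 bp in list 1 and between 500 and 750 bp in list 2, and pairs on both sides of the limit of 2000 bp were still above even placement. Below 400 bp there were 0 pairs in list 1 and 3 in list 2, 0.072 times even placement, and from 400 to 500 bp the ratios were 3.51 and 1.72. From 500 to 750 bp list 1 held 172 pairs of midpoints, 3.40 times even placement (exact Poisson 95% interval 2.91 to 3.95), and list 2 held 104, or 3.98 times (3.25 to 4.82). From 1000 to 1250 bp the ratios were 2.23 and 2.45. From 1750 to 2000 bp they were 1.92 (1.56 to 2.34) and 1.57 (1.12 to 2.13), and just beyond the limit, from 2000 to 2250 bp, 1.96 (1.59 to 2.38) and 2.37 (1.82 to 3.04). The ratios of list 2 went up and down from class to class in this range, within wide intervals, and the limit divides a continuous range of distances. Farther out the ratios came down to 1.23 and 1.27 at 10 to 20 kb and to 1.05 in both lists at 500 to 1000 kb. The farthest neighbours joined into a cluster were 2000 bp apart in list 1 and 1997 bp in list 2, and the nearest left apart were 2001 and 2003 bp apart. Neighbours at 1500 to 2000 bp numbered 180 in list 1, against 187 at 2000 to 2500 bp, and in list 2 they numbered 100 against 101.

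Peaks of the other list were also in excess near a peak, with a curve that differed from those within lists at short distances and lay close to them beyond 10 kb. Up to 400 bp, where the lists hold almost no pairs of their own, 525 pairs lay between the lists, 4.51 times even placement (exact Poisson 95% interval 4.13 to 4.91) and the highest ratio of that curve. Between the lists, 190 pairs of midpoints lay 500 to 750 bp apart, 2.61 times even placement (exact Poisson 95% interval 2.25 to 3.01). This was below the ratios within list 1 and list 2 at that distance, and its interval did not overlap that of list 2. From 2500 to 3000 bp the ratio between lists was 1.61 (1.41 to 1.83), against 1.71 (1.47 to 1.99) and 1.85 (1.50 to 2.26) within them. At 10 to 20 kb the ratios between lists, within list 1 and within list 2 were 1.24, 1.23 and 1.27, and at 50 to 100 kb they were 1.15, 1.15 and 1.17. From 400 to 1000 bp the values within lists were the higher ones, apart from 1.72 in list 2 at 400 to 500 bp, where the ratio between lists was 2.71. All chromosomal peaks, clustered or single, entered these counts. Pairs within a list at up to 2000 bp are those that define the members, and these differences were not tested.

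**Figure D1:**
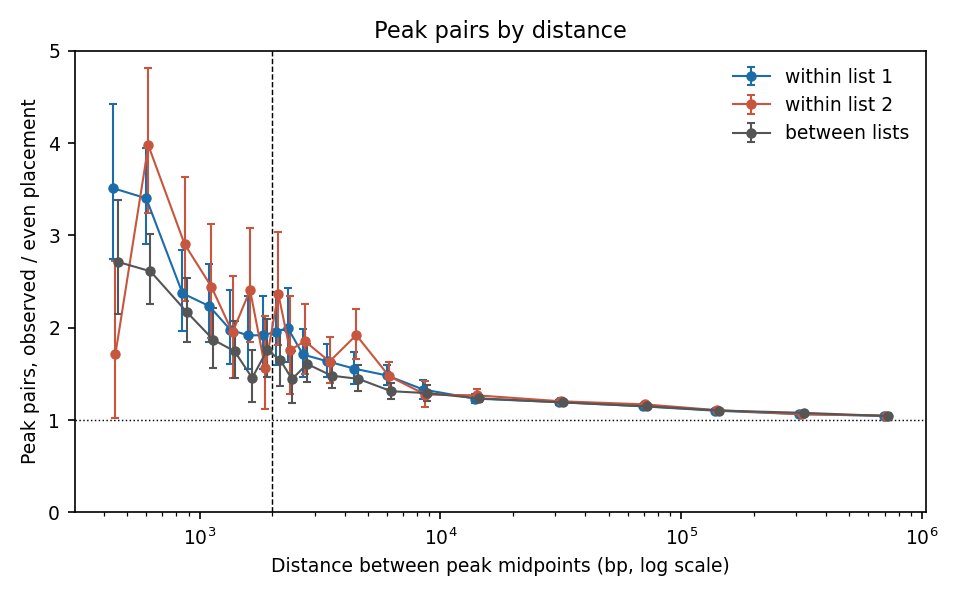
Number of peak pairs over the number that even placement gives, against the distance between midpoints on a log axis, within list 1, within list 2 and between the lists; bars are exact Poisson 95% intervals and the dashed line is the 2000 bp limit. Distances below 400 bp are not drawn. From 500 to 750 bp onwards the curves come down, unevenly for list 2, and lie between 1.23 and 1.27 at 10 to 20 kb.

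Clustered peaks had more peaks of the other duplicate close by than single peaks had. In list 1, 142 of 1446 clustered peaks had a list 2 midpoint within 2000 bp, which is 9.82% (95% Wilson interval 8.39 to 11.5), against 6.56% of single peaks (6.21 to 6.92) and 6.79% of all list 1 peaks. In list 2, 114 of 809 clustered peaks had a list 1 midpoint that close, or 14.1% (11.9 to 16.7), against 9.05% of single peaks (8.58 to 9.54) and 9.33% of all list 2 peaks. The ratios of clustered to single peaks were 1.50 (log-normal 95% interval 1.27 to 1.77) and 1.56 (1.30 to 1.86). The share was higher among clustered peaks on 7 of 10 chromosomes in list 1 and on 9 of 10 in list 2. Members of a cluster can share the same neighbour, so the comparison was repeated with the first peak of each cluster alone, a choice made after seeing the data. It gave 10.0% in list 1 (ratio 1.53, interval 1.22 to 1.92) and 13.9% in list 2 (1.54, 1.20 to 1.98). Single peaks too were above even placement, which gives 2.82% of list 1 peaks and 3.90% of list 2 peaks. A clustered peak has a second peak of its list within reach by choice, so part of its higher share is built into the comparison, and how much was not tested. Clustered peaks also lay in denser 1 Mb windows. The median window held 13 peaks of the same list for clustered and 11 for single peaks in list 1, and 10 and 8 in list 2. These counts include the clustered peaks themselves. The ratios were not adjusted for local density. No test across peaks was run, since neighbouring peaks are not independent.

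Peaks of the other list were denser around cluster centres than around single peaks at several distances, but not at all of them. Within 2 kb of the centres of the 699 list 1 clusters there were 74 list 2 peaks, 26.5 per Mb and 3.71 times even placement (exact Poisson 95% interval 2.91 to 4.65). Around single list 1 peaks the ratio was 2.39 (2.26 to 2.53). Within 2 kb of the 395 list 2 clusters there were 61 list 1 peaks, 3.91 times even placement (2.99 to 5.02), against 2.40 (2.27 to 2.53) around single list 2 peaks. A cluster has at least 2 peaks in this ring and a single peak has 1, so a higher ratio around clusters follows in part from their choice, and the intervals are no test of it. At 2 to 5 kb the ratios around clusters were 2.04 (1.56 to 2.62) for list 1 and 1.41 (0.970 to 1.98) for list 2, where single peaks had 1.47 and 1.50. At 5 to 10 kb they were 1.26 (0.970 to 1.61) for list 1 and 1.61 (1.24 to 2.06) for list 2, where single peaks had 1.30 and 1.29. Each list thus had a ring between 2 and 10 kb in which clusters had the lower ratio. Farther out, list 1 clusters had 1.59 (1.35 to 1.86) at 10 to 20 kb, 1.34 (1.21 to 1.48) at 20 to 50 kb and 1.27 (1.17 to 1.37) at 50 to 100 kb, against 1.21, 1.18 and 1.14 around single peaks. List 2 clusters had 1.46 (1.20 to 1.75), 1.23 (1.09 to 1.38) and 1.21 (1.11 to 1.33) in these rings, against 1.22, 1.19 and 1.15. At 200 to 500 kb clusters and single peaks had 1.08 each in list 1, and 1.10 and 1.08 in list 2.

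**Figure D2:**
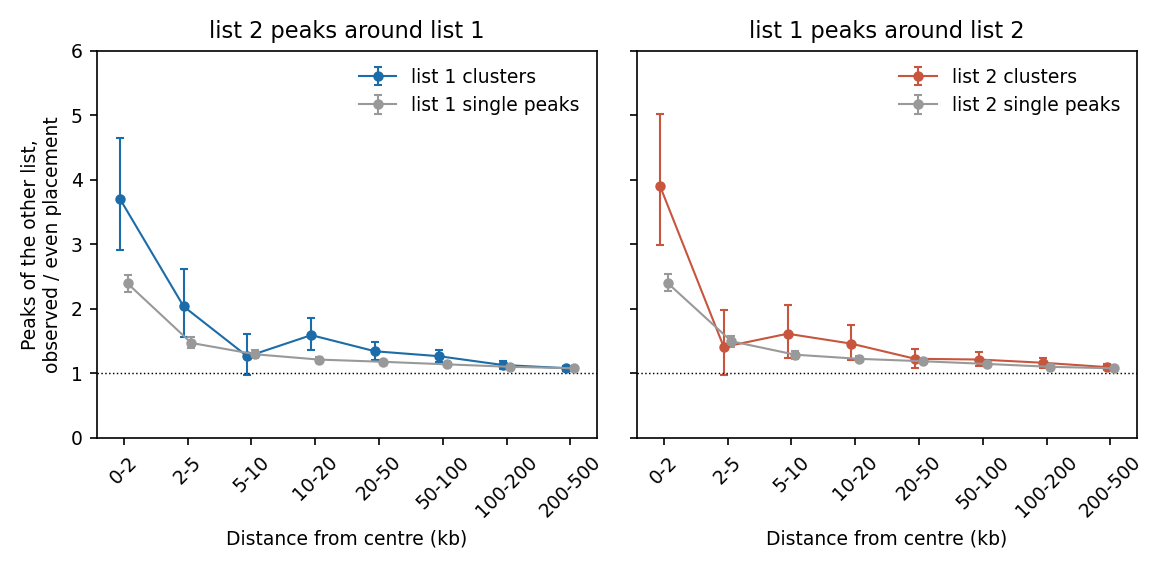
Peaks of the other list in rings around cluster centres and around single peaks, as a ratio to even placement with exact Poisson 95% intervals; the left panel takes centres from list 1 and the right panel from list 2. Within 2 kb the clusters stand at 3.71 and 3.91 and the single peaks at 2.39 and 2.40.

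Direct overlap with the other duplicate was rare for clustered peaks as for the rest. A peak that overlapped the other list by 1 bp or more is called shared. In list 1, 41 clustered peaks were shared, 2.84% (95% Wilson interval 2.10 to 3.82), against 2.17% of single peaks (1.97 to 2.39) and 2.22% of all list 1 peaks. In list 2, 33 were shared, 4.08% (2.92 to 5.67), against 3.01% (2.73 to 3.30) and 3.07% of all list 2 peaks. The ratios of clustered to single peaks were 1.31 (log-normal 95% interval 0.951 to 1.79) and 1.36 (0.959 to 1.92), and both intervals include equal shares. Whether the interval included equal shares depended on the definition. Members of one cluster are not independent and can share the same neighbour. These intervals are therefore too narrow, and they are no test. With the other list within 500 bp in place of an overlap, the ratios were 1.35 (1.08 to 1.70) and 1.48 (1.16 to 1.89). In list 2 the ratio was 1.85 (1.22 to 2.81) with the first peak of each cluster, a choice made after seeing the data, and 2.62 (1.07 to 6.41) in the higher-scoring 50% of both lists. In list 1 the same alternatives gave 1.32 (0.847 to 2.05) and 1.25 (0.462 to 3.41), and both intervals include equal shares. Where 50% of both peaks had to overlap, the ratio was 0.484 (0.154 to 1.52) in list 2 and 1.47 (0.790 to 2.73) in list 1. The clustered share was higher on 4 of 10 chromosomes in list 1 and on 7 of 10 in list 2. Relative to what its width gives under even placement, a clustered peak was shared 6.92 times as often in list 1 (exact Poisson 95% interval 4.97 to 9.39). A single peak of list 1 was shared 5.32 times as often (4.82 to 5.86). In list 2 the values were 7.23 (4.98 to 10.2) and 5.30 (4.80 to 5.83). The intervals of clustered and single peaks overlap in both lists.

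In most clusters no peak was shared, and few peaks of either list were shared at all. Over all chromosomal peaks the shared part was 2.22% in list 1 and 3.07% in list 2. The counts below were not tested against these shares. Of the list 1 clusters, 662 had no shared peak, 33 had 1 and 4 had 2. Of the list 2 clusters, 363 had none, 31 had 1 and 1 had 2. No cluster of either list had 3 shared peaks. Of the 138 list 1 peaks in clusters of 3 or more, 6 were shared, and of the 53 such peaks of list 2, 3 were. More broadly, the span of a cluster held or touched a peak of the other list in 44 list 1 clusters (6.29%, Wilson interval 4.72 to 8.34) and in 39 list 2 clusters (9.87%, 7.31 to 13.2). Even placement gives 8.62 and 6.64 such clusters.

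Clusters of the duplicates rarely met each other, though more often than even placement gives, on a count of 4. Only 4 clusters of list 1 overlapped the span of a list 2 cluster, 0.572% of the list 1 clusters (95% Wilson interval 0.223 to 1.46) and 1.01% of the list 2 clusters (0.394 to 2.57). Even placement of the clusters gives 0.385 meetings, a ratio of 10.4 with an exact Poisson 95% interval from 2.83 to 26.6 that rests on 4 places. That ratio is for spans, which include the gaps between peaks. Counted by overlap of peaks, clustered list 1 peaks overlapped clustered list 2 peaks in 4 cases, 12.3 times even placement. These cases lay at 3 places, with 2 of them at the meeting on chromosome 2. By the same count, list 1 peaks without a neighbour overlapped clustered peaks of list 2 in 29 cases, 6.82 times even placement. Single list 2 peaks overlapped clustered list 1 peaks in 34 cases, 6.06 times. No interval was computed for these ratios of peak overlap, and the differences between them were not tested. The 4 places where spans met lay on chromosomes 2, 4, 5 and 10. Nearly all clusters, 695 and 391, had no cluster of the other list at the same place, and even placement would leave still more without one. Most peaks of any kind had no counterpart either, since 2.22% of all list 1 peaks and 3.07% of all list 2 peaks overlapped the other list.

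The 4 meetings differed in how their peaks were arranged. The one with peaks shared at more than 1 point was on chromosome 2, chr2:180041379-180045170, with 3 list 1 peaks and 2 list 2 peaks. Its list 1 peaks, each 200 bp wide, scored 237.92, 328.46 and 375.29, where the score is the peak caller's value as the authors deposited it, and the first 2 overlapped a list 2 peak. The list 2 peaks scored 109.06 and 84.93 and were 500 and 327 bp wide. There both duplicates had a peak at the start and another farther on, 1793 bp between midpoints in list 1 and 1641.5 bp in list 2, and the last list 1 peak had no list 2 counterpart.

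On chromosome 4, at chr4:109861636-109863966, 2 list 1 peaks met 3 list 2 peaks. The list 1 peaks scored 299.31 and 112.54 and were 595 and 200 bp wide. The list 2 peaks scored 69.84, 52.20 and 52.80, and only the last of them overlapped a list 1 peak. The 1 Mb window around this place, from 109 to 110 Mb, held 16 list 2 peaks, 5 of them clustered, a number that 4 windows of list 2 reached and none passed. List 1 had 19 peaks in the same window, of which only the 2 of this meeting were clustered.

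On chromosome 5, at chr5:83841430-83844324, 2 list 1 peaks with scores of 152.60 and 74.80 lay among 3 list 2 peaks with scores of 69.27, 68.49 and 42.29, and 1 list 1 peak overlapped. On chromosome 10, at chr10:117203110-117206283, 2 list 1 peaks (194.50 and 237.92) and 2 list 2 peaks (53.36 and 72.02) alternated without any overlap. Meetings were therefore of 2 kinds, 3 with peaks at the same point and 1 with interleaved peaks.

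**Figure D3:**
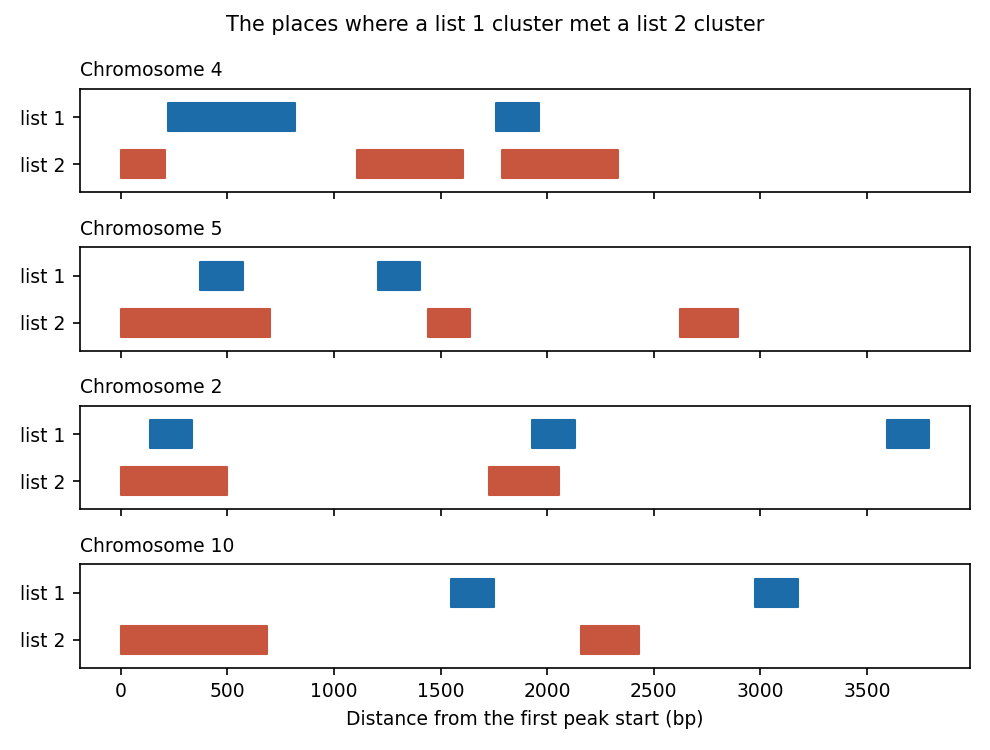
Peaks of both lists at the 4 places where a list 1 cluster met a list 2 cluster, drawn to scale from the first peak start in bp; each bar is 1 peak, list 1 above and list 2 below. Peaks of the lists overlap at 2 points on chromosome 2, at 1 on chromosomes 4 and 5, and nowhere on chromosome 10.

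The clusters with the most peaks are described one by one. In the 5 largest of list 1, 0 of 18 peaks were shared, and in those of list 2, 1 of 17, numbers too small to set apart from the 2.22% and 3.07% of all peaks. The largest of list 1, 5 peaks over 4986 bp at chr8:70128221-70133206, had scores of 194.50, 112.54, 74.80, 74.80 and 990.06. Its midpoints lay 721, 1646, 831 and 1588 bp apart, and none of its peaks overlapped list 2. The next, 4 peaks at chr2:138553513-138556776, scored 56.68, 672.49, 471.53 and 2685.01, so that its highest peak far exceeded the first. The tightest cluster of 3, at chr7:72609057-72610289, was evenly spaced, with midpoints 515 and 518 bp apart and scores of 74.80, 152.60 and 112.54. Those at chr2:148726770-148728058 (570.75, 672.49 and 423.01) and chr4:218462398-218463693 (194.50, 152.60 and 423.01) followed.

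In list 2 the largest clusters had 4 peaks. That at chr4:174572623-174575792 scored 95.36, 80.35, 63.19 and 51.18, with widths of 610, 200, 211 and 363 bp. That at chr5:178015553-178019104 scored 74.99, 46.65, 48.82 and 114.87, with the highest score on its widest peak of 665 bp. Neither had a shared peak. The tightest cluster of 3, at chr5:120792411-120794302, scored 51.80, 40.39 and 48.68, and its first peak, 892 bp wide, overlapped list 1. Those at chr1:13535161-13537095 (40.11, 52.00 and 51.96) and chr10:99647333-99649530 (111.47, 48.68 and 49.81) had no shared peak. Peak edges can nearly touch in this list, where the smallest gap between edges was 2 bp, against 202 bp in list 1.

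Every chromosome held clusters, and on every one clustered peaks exceeded what its window densities give. In list 1 the lowest clustered share was 6.14% on chromosome 3 (95% Wilson interval 5.20 to 7.22) and the highest 8.20% on chromosome 6 (6.96 to 9.64), followed by 7.92% on chromosome 5. In list 2 the lowest share was 4.50% on chromosome 5 (3.58 to 5.64) and the highest 6.72% on chromosome 7 (5.46 to 8.24), followed by 6.56% on chromosome 6. Most of these intervals overlap, and chromosome 5 was near the top of list 1 and at the bottom of list 2. Relative to window density, chromosome 6 had the highest ratio in both lists, 1.97 (exact Poisson 95% interval 1.65 to 2.33) and 2.20 (1.73 to 2.74). Chromosome 4, the densest in peaks, had the lowest in both, 1.46 (1.26 to 1.69) and 1.35 (1.09 to 1.64). These chromosomes were picked after their values were seen, and their difference was not tested.

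**Figure D4:**
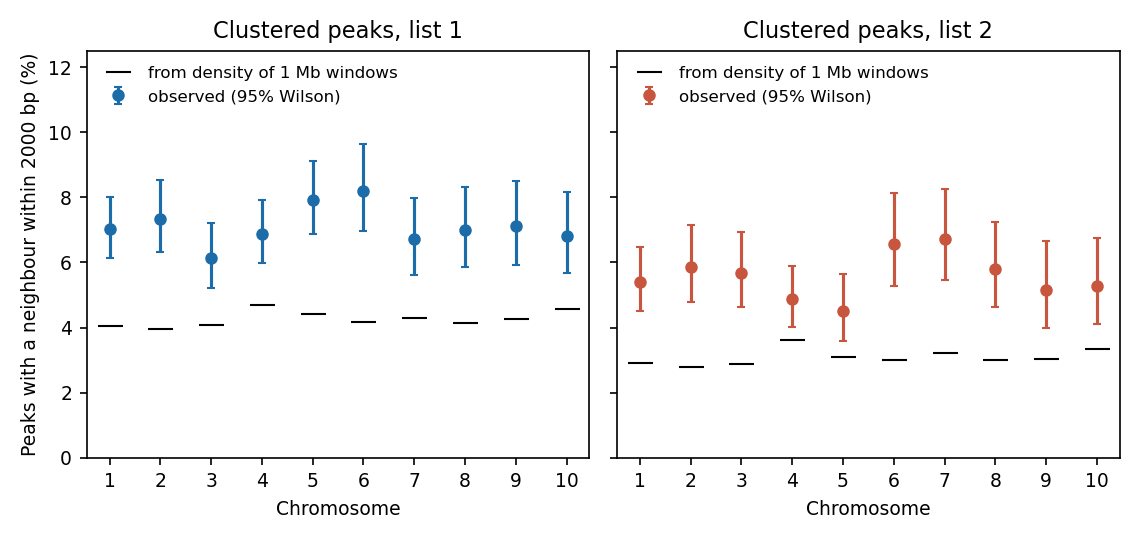
Percent of the peaks of each chromosome that were clustered, with 95% Wilson intervals, in list 1 (left) and list 2 (right); horizontal dashes are the percent given by the peak density of 1 Mb windows. The points lie above the dashes on all 10 chromosomes in both lists.

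Along the chromosomes the clustered share was about level in list 1 and somewhat higher in the middle in list 2, with intervals that overlap. In the middle of the chromosomes, from 25% to 75% of their span, 7.05% of list 1 peaks were clustered, against 7.16% in the outer parts (ratio 0.985, log-normal 95% interval 0.891 to 1.09). Peaks were denser in the middle, and the window densities give a ratio of 1.17, above that interval. The list 2 peaks were clustered in 5.95% and 5.01% of cases, which is a ratio of 1.19 (1.04 to 1.36), where window densities give 1.20. The middle had the higher share on 4 of 10 chromosomes in list 1 and on 8 of 10 in list 2. The difference between the lists was not tested. In the donor segment of chromosome 1, from 35 to 66 Mb on build AGPv2, 24 of 282 list 1 peaks and 12 of 237 list 2 peaks were clustered, 8.51% (5.79 to 12.4) and 5.06% (2.92 to 8.64). In that of chromosome 6, from 89 to 102 Mb, 10 of 125 and 2 of 90 were clustered, 8.00% (4.40 to 14.1) and 2.22% (0.612 to 7.74). All these intervals include the shares on the rest of the chromosome, 6.86% and 5.45% on chromosome 1 and 8.22% and 6.93% on chromosome 6, and they take the lists to use that build.

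Clustered peaks made up a larger share in windows of 11 to 15 peaks than in sparser ones, and they were in excess in sparse windows too. The count of a window includes the clustered peaks themselves. In windows of 1 to 5 peaks of the same list, 2.45% of list 1 peaks and 2.60% of list 2 peaks were clustered, 1.86 and 2.08 times what the window's own density gives. In windows of 11 to 15 peaks the shares were 7.94% and 7.61%, or 1.72 and 1.70 times. In windows of 16 to 20 peaks they were 9.03% and 7.10%, and the ratios had come down to 1.41 and 1.14. In windows of 6 to 10 peaks the shares were 5.43% and 5.42%, with ratios of 1.89 and 1.96, so that the ratio of list 1 was about level up to 10 peaks and lower beyond. Above 20 peaks list 1 had 98 clustered of 766, 12.8% and 1.54 times, and list 2 had 4 of 45, 8.89% and 1.07 times. The most clustered peaks in a window of list 1 were 8 of 15, on chromosome 4 from 92 to 93 Mb, where list 2 had 7 peaks with 2 of them clustered.

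**Figure D5:**
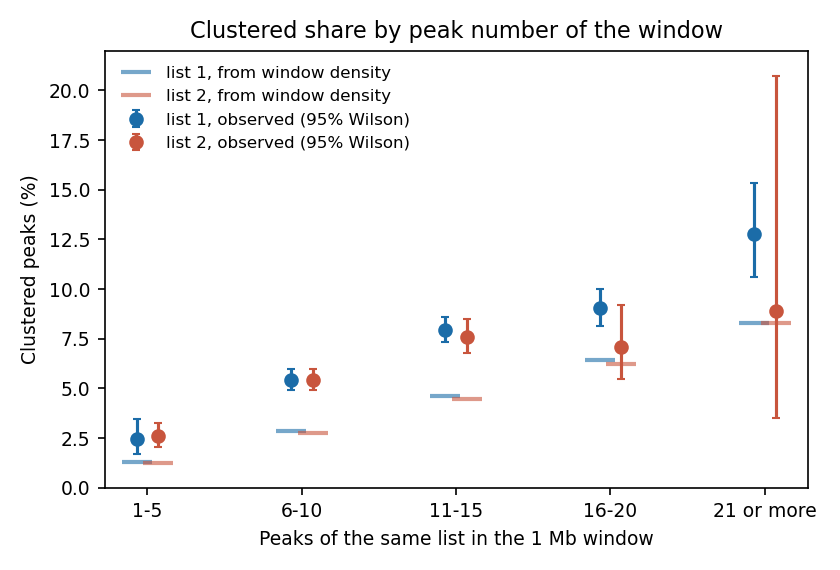
Percent of peaks that were clustered, by the number of peaks of the same list in the 1 Mb window, with 95% Wilson intervals; dashes are the percent that the window's own density gives. The shares rise from 2.45% and 2.60% in the sparsest windows to 7.94% and 7.61% in windows of 11 to 15 peaks, with the dashes below them.

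Clustered peaks resembled single peaks in width and in most of their scores. In list 1 the median score was 282.63 in both classes, with interquartile ranges of 152.60 to 570.75 and 152.60 to 672.49. Scores of 3100 or more, the top of the list 1 scale, were held by 4.22% of clustered peaks (95% Wilson interval 3.30 to 5.38) and 4.76% of single peaks (4.47 to 5.07). Widths of exactly 200 bp, the smallest in the lists, made up 94.5% and 95.6%. In list 2 the median scores were 68.49 (95% interval from binomial ranks 65.82 to 70.05) and 70.05, and the median widths 327 and 332 bp. High scores were scarcer in the list 2 clusters. The highest-scoring 10% of the list held 7.17% of clustered peaks (5.59 to 9.16) against 10.4% of single peaks (9.88 to 10.9). No clustered peak of list 2 scored above 462.77, while single peaks reached 2475.57. These maxima come from 809 and 13838 peaks, and the larger group is more likely to hold the highest score by its number alone. Clusters of 3 or more had a median score of 53.90 there (51.96 to 69.70, 53 peaks).

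Neighbours in a cluster shared little in score. In list 1 many peaks have one of a few repeated scores, and 5.62% of the 747 neighbouring pairs within clusters had exactly the same score (95% Wilson interval 4.19 to 7.51). Neighbours farther apart than 2000 bp had the same score in 5.37% of cases, and the frequencies of the scores give 5.37%. In list 2 the same score occurred in 6 of 414 neighbouring pairs, 1.45% (0.666 to 3.13), against 0.738% farther apart. Within a cluster the highest score was a median of 2.67 times the lowest in list 1 (interquartile range 1.57 to 5.59) and 1.53 times in list 2 (1.22 to 2.06). A range of 10 times or more occurred in 92 list 1 clusters and in none of list 2, whose scores span less. The rank correlation of neighbours' scores was 0.110 over 747 pairs in list 1 and 0.040 over 414 in list 2, pairs that come from the same libraries. At 2000 to 5000 bp it was 0.049 in list 1 and 0.032 in list 2. Over all neighbours farther apart than 2000 bp it was -0.0003 and -0.0024. Scores of close neighbours were thus slightly more alike in list 1, a difference that was not tested. A peak's score thus told little of its neighbour's in either list.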

How the data were processed

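Peaks were taken as the authors deposited them, in 2 lists with a chromosome, start, end, name and score per peak. The labels tie a list to the P1-rr and the P1-ww library of one number, so peaks were called per pair and not on pooled duplicates. Peak names carry MACS. The submitters' processing notes name CASAVA 1.4 and Bowtie. MACS settings, the genome build and the scale of the score, which is the authors' own, are given in no source used here. Per the labels' protocols, 0.3 g of pericarp was fixed in 0.1% formaldehyde and chromatin was sheared to about 300 bp. Starts in the deposited lists count from 0, as in BED files, and coordinates are printed here in counts from 1. Value columns left unmapped numbered 0.

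Clusters joined neighbouring midpoints at most 2000 bp apart. Expected numbers came from closed formulas for independent, even placement on each chromosome up to the largest peak end in either list, or in 1 Mb windows. They do not cover where reads can align. Intervals are at 95%: Wilson for shares, exact Poisson for counts over a fixed expected number, log-normal for ratios of shares, and binomial ranks for medians. No p-value was computed, since each list is 1 sample and peaks are not replicates. The clusters named are, by rule, the 5 with the most peaks in each list (ties by smaller span) and every meeting of clusters. Members, rule and comparisons were chosen with earlier results of these data known. Scripts used numpy 2.4.6, pandas 2.3.3, scipy 1.17.1 and matplotlib 3.10.9 under Python 3.11.15. The even-placement formulas for clustered peaks and for overlap of peaks were checked on simulated data. Those for window density, pairs by distance, rings and meetings of clusters were not checked in this way. Alternatives covered the distance, the edges, the score, the overlap and the density model.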

Additional observations from a re-analysis of the deposited data

Results flagged for a closer look

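Peaks off the 10 chromosomes took no part in the choice of members and were looked at with the same distance of 2000 bp. More than 3 clustered peaks, the limit set by an observed 0, led to a closer look. That limit takes no account of how many peaks were looked at. In the mitochondrial genome, 9 of 29 list 2 peaks had a neighbour that close, 31.0% (95% Wilson interval 17.3 to 49.2), in 4 clusters of at most 3 peaks. In list 1 it was 2 of 5. In unplaced sequence 4 of 46 list 1 peaks were clustered, 8.70% (3.43 to 20.3), and 2 of 43 in list 2, 4.65% (1.28 to 15.5). Both intervals include the clustered share on the 10 chromosomes, 7.10% in list 1 and 5.52% in list 2, so unplaced sequence did not stand out. For the mitochondrial genome no expected number was computed. No control sample gives a peak list of its own, and no test was run on these counts.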

How the results depend on the processing

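Of 59 alternative values, 37 stayed within the interval of the value reported, or within 1.5 times for the count of meetings, and 6 were picked once the data had been seen. The excess of clustered peaks over the expected number held under every alternative run. The clustered shares were 3.50% and 2.73% for list 1 and list 2 at 1000 bp, 15.6% and 12.4% at 5000 bp, 7.88% and 6.49% with gaps between edges, and 3.93% and 2.45% in the higher-scoring 50% (10670 and 7360 peaks), where fewer peaks are left to be neighbours by construction. The ratios to even placement were 1.65 and 1.80 at 5000 bp, 1.66 and 1.79 with window densities, 2.27 and 2.35 without the unused distances, and 1.72 in the higher-scoring 50% of list 2. The ratio of the middle to the outer parts in list 2 rose to 1.45 at 1000 bp; the cause was not tested. The ratio of overlap in list 2 moved in both directions: 0.484 at 50% of both peaks (3 clustered peaks shared), 0.922 when clusters were made at 5000 bp, and 2.62 among higher-scoring peaks (50% of each list); the cause was not tested. With the first peak of each cluster alone it was 1.85 (1.22 to 2.81), against 1.32 (0.847 to 2.05) in list 1. Meetings of clusters numbered 0 at 1000 bp, 14 at 5000 bp and 1 in the higher-scoring 50%, where other numbers of clusters enter by construction. No paired analysis was possible because the lists hold differences within a replicate number and no value of a single library. For the same reason no replicate could be left out within a list. Few meetings and shared peaks in clusters limit what can be seen of them.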
